A study of Rattus norvegicus with 10 samples.

Results

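The genes of mitosis and cell division were followed in cultured newborn rat heart muscle cells that were left unpaced, paced electrically, or paced while contraction was blocked. The list held 40 genes that encode cyclins, mitotic kinases, spindle and kinetochore proteins and cytokinesis factors, and its members were found on the array by gene name. Of these, 35 were matched to at least 1 probe set annotated with that gene alone, among 14217 gene symbols on the array. The 35 genes had 51 of the 31042 probe sets that were not array controls, and 12 of them had more than 1. Ndc80, Kif4a, Tpx2, Ncapg and Anln were not analysed here, because no probe set carried their symbol alone.

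The cells were primary cultures of ventricular cardiomyocytes from Lewis rats aged 0 to 3 days. After a recovery phase they were kept for 3 days without pulses (nonpulsed, n = 3 arrays), with electric pulses of 1 Hz at 2 V/cm (pulsed, n = 4), or with those pulses plus 10 µmol/L blebbistatin, an inhibitor of myosin II that stops contraction (pulsed with blebbistatin, n = 3). The array titles carry 4 different dates, which were taken as series of cell isolation and culture and are numbered here as culture series 1 to 4. The labels do not say whether a date is that of the culture or of the array, so culture and array processing cannot be told apart between series. Series 2 and 3 covered all 3 groups, series 1 lacked blebbistatin and series 4 lacked the nonpulsed group. Each array held RNA pooled in equal parts from duplicate experiments, so a single series has 1 array per group and no replicate of its own. No array held blebbistatin without pulses, so blocked contraction and other effects of the drug cannot be told apart. Myosin II also drives the contractile ring of dividing cells.

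A cell enters mitosis when cyclins A and B activate the kinase Cdk1. Aurora and Polo kinases then help to build the spindle, kinetochores attach chromosomes to its microtubules, and the spindle checkpoint holds the anaphase promoting complex back until all are attached. Cells that have left the cell cycle transcribe few of these genes. Rat cardiomyocytes leave the cycle in the days after birth, often with a last round of mitosis without cytokinesis. Fibroblasts, smooth muscle cells and other cells of a heart culture that are not cardiomyocytes can go on dividing. The arrays measured RNA of whole cultures, in which fewer dividing cells and less RNA per dividing cell cannot be told apart.

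Mitosis genes had the highest values in 1 nonpulsed array and the lowest in 1 blebbistatin array, and with blebbistatin most of them lay below the paired arrays of each series. All values are log2 expression values as deposited. The nonpulsed array of series 1 held the highest of the 10 values for 30 of the 35 genes, against 13.3% of all 18393 genes and unnamed probe sets tested. The blebbistatin array of series 3 held the lowest for 32 of the 35, against 9.68% of all genes. Expressed as the median deviation of the 35 genes from their own means over all arrays, nonpulsed arrays stood at 0.66, 0.11 and 0.15 in series 1, 2 and 3. Pulsed arrays stood at 0.10, 0.07, 0.48 and 0.03 in series 1 to 4, and blebbistatin arrays at -0.17, -0.93 and -0.34 in series 2, 3 and 4. The nonpulsed and pulsed groups overlapped on this measure, and all blebbistatin arrays lay below both.

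**Figure D1:**
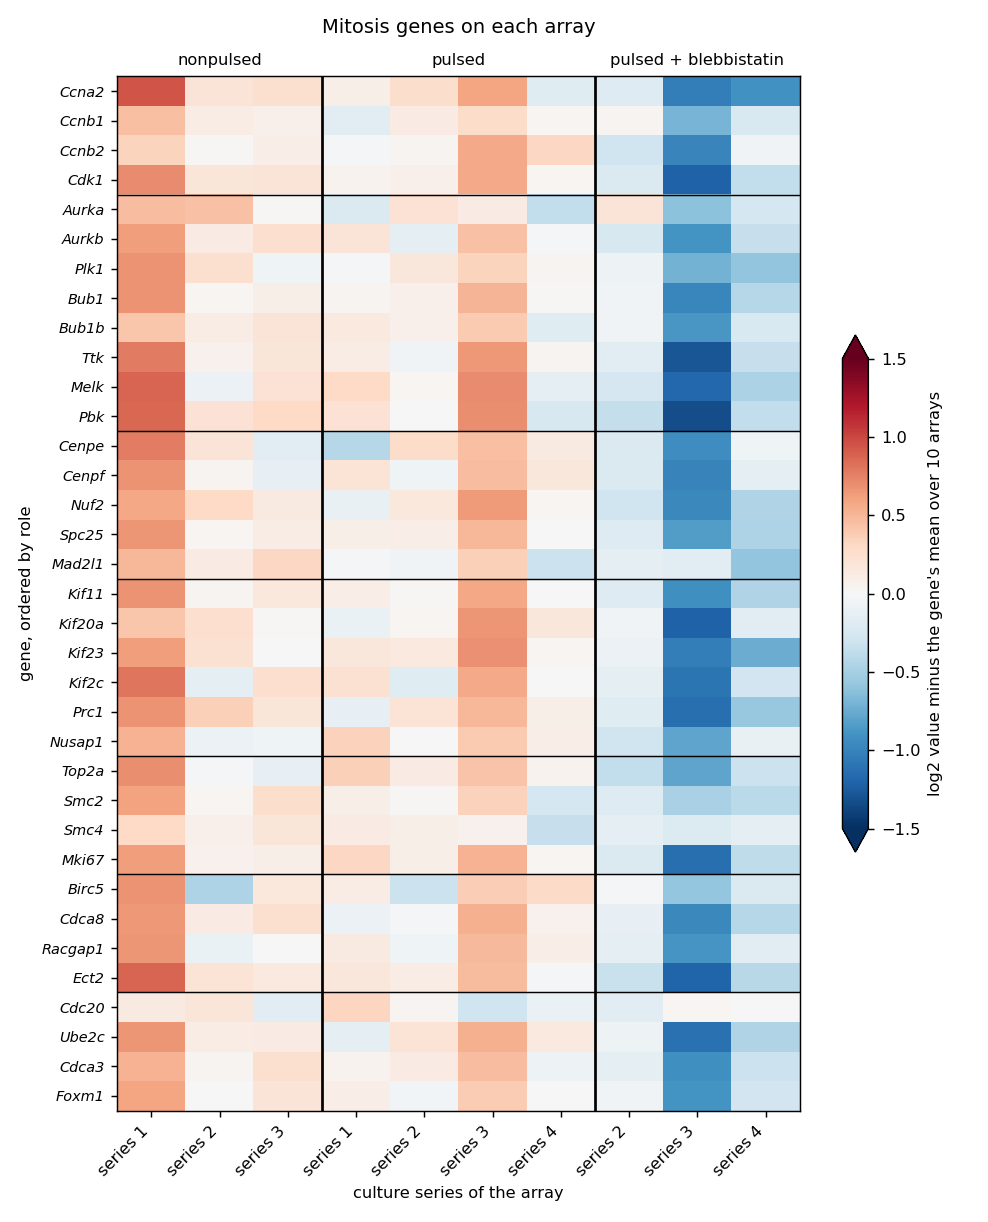
Log2 value of each of the 35 mitosis genes minus the gene's mean over 10 arrays (colour), with genes in rows ordered by role and arrays in columns by group and culture series. The nonpulsed array of series 1 is highest for 30 genes and the blebbistatin array of series 3 lowest for 32.

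The promoters of many of these genes share 2 short elements, and 4 promoters are shown because their genes had the largest changes with blebbistatin among the members that hold both. The CHR element, known from genes transcribed late in the cell cycle, was searched as TTTGAA and TTCGAA, and the CCAAT box, to which the factor NF-Y binds, as CCAAT, each on both strands, with matches that share bases counted for both. The promoter set used here, from RefSeq (GRCr8), held 33 of the 40 members. Each promoter spanned 250 bases before to 50 after the start of the gene. A CHR element stood in 24 of the 33 member promoters (72.7%) and in 19.7% of all 33469 promoters of that length. A CCAAT box also stood in 24 (72.7%), against 37.5% of all promoters, and both stood in 19 (57.6%), against 7.95%. The stretches below run from 160 bases before to 10 after the start, in the direction of the gene, and capitals mark the matches to either element (ATTGG is CCAAT on the other strand).
Kif23, chr8:71320575-71320744 (minus strand): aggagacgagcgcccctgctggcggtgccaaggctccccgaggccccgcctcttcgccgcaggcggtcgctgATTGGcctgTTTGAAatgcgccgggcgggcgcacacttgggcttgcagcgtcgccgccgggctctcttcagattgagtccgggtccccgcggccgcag
Prc1, chr1:143659321-143659490 (plus strand): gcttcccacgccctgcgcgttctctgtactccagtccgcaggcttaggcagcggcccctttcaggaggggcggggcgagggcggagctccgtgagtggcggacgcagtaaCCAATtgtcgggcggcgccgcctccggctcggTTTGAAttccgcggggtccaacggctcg
Ect2, chr2:111966617-111966786 (minus strand): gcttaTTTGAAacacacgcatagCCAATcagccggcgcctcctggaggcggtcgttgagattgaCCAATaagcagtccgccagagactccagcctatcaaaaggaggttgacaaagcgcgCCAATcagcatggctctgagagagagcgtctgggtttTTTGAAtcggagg
Cdk1, chr20:19265133-19265302 (plus strand): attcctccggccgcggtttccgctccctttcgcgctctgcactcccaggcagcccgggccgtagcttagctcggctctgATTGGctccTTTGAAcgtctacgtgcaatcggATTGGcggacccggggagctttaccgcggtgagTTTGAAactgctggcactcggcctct
In Kif23 and Cdk1 an ATTGG match stands just before a TTTGAA match, while in Prc1 the CCAAT match comes first and the TTTGAA match lies further downstream, close to the start. Ect2 holds several CCAAT matches between 2 TTTGAA matches. A match of letters is a description of the sequence and does not show that a factor binds there.

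Cardiomyocyte markers were high on every array, and markers of other cells were measured too. The cardiomyocyte genes Myh6, Tnnt2 and Actn2 had log2 values of 12.58 to 13.59, 13.17 to 13.56 and 11.71 to 12.91 over the 10 arrays. Markers of fibroblasts, smooth muscle, endothelium and macrophages were measured as well. Among the marker genes that passed the filter on low values, C1qa alone was at the lowest level of an array, on 1 array. That filter removes genes with low means, so this count does not show that each cell type was present. Vwf, Emcn, Itgam, Cd163, Msln, Krt19, Sox10 and Ngfr had a probe set but fell below the filter. Array medians of all probe sets lay between 6.57 and 6.78. The nonpulsed array of series 1 differed from the others in more than mitosis genes. It held the lowest value of 8 of the 10 cardiomyocyte markers, against 23.6% of all genes, with a median deviation of -0.62. Its median deviation was 0.72 for 11 smooth muscle and pericyte markers. For 13 fibroblast markers it was 0.46 and for 9 macrophage and leukocyte markers 0.97. Fibroblast and macrophage markers were also above their means in the pulsed arrays of series 1 (0.29 and 0.63) and series 4 (0.32 and 0.93). The 2 Schwann and neural markers tested, Tubb3 and S100b, were both highest in the nonpulsed array of series 1 (13.3% of all genes), with a median deviation of 1.11. As a measure of RNA quality, the 3' control probe set of beta-actin exceeded the 5' one by 0.45 log2 units in that array and by 0.60 to 0.77 in the other 9. The other controls did not set that array apart. The excess was 0.17 there and 0.06 to 0.22 elsewhere for GAPDH, and 0.85 and 0.80 to 1.04 for hexokinase. The part of these markers and of RNA quality in the mitosis values of that array was not tested.

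The comparison of pulsed with nonpulsed cultures asked how pacing changed gene expression, and the mitosis genes differed in opposite directions between culture series. In series 1 the pulsed array was lower for 34 of 35 genes (36.2% of all genes were lower there), with a median log2 difference of -0.57. In series 2 it was lower for 20 of 35 (43.6% of all genes), with a median of -0.04. In series 3 it was lower for 2 of 35, Smc4 and Cdc20 (42.9% of all genes), with a median of 0.38. The medians over all genes were 0.11, 0.03 and 0.03 in the 3 series. Counted over all 51 probe sets, 50, 29 and 3 were lower in series 1, 2 and 3 (35.2%, 43% and 42.4% of all probe sets). Smooth muscle and pericyte markers had medians of -0.52, -0.07 and 0.15 in the same series, and cardiomyocyte markers of 0.81, 0.20 and 0.00. The 2 Schwann and neural markers had medians of -0.95, -0.31 and 0.53. The other marker lists did not follow the mitosis genes in this way. Medians were 0.01, -0.08 and 0.06 for fibroblast markers and 0.24, -0.01 and 0.16 for endothelial markers. For macrophage and leukocyte markers they were 0.07, -0.01 and 0.04. Mesothelial and epicardial markers had -0.02, -0.10 and -0.03, and erythroid markers 0.17, -0.16 and -0.14. The part of these markers in the mitosis values was not tested. Not 1 of the 35 genes was lower in every series (9.67% of all genes were), and not 1 was higher in every series (24.7% of all genes).

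**Figure D2:**
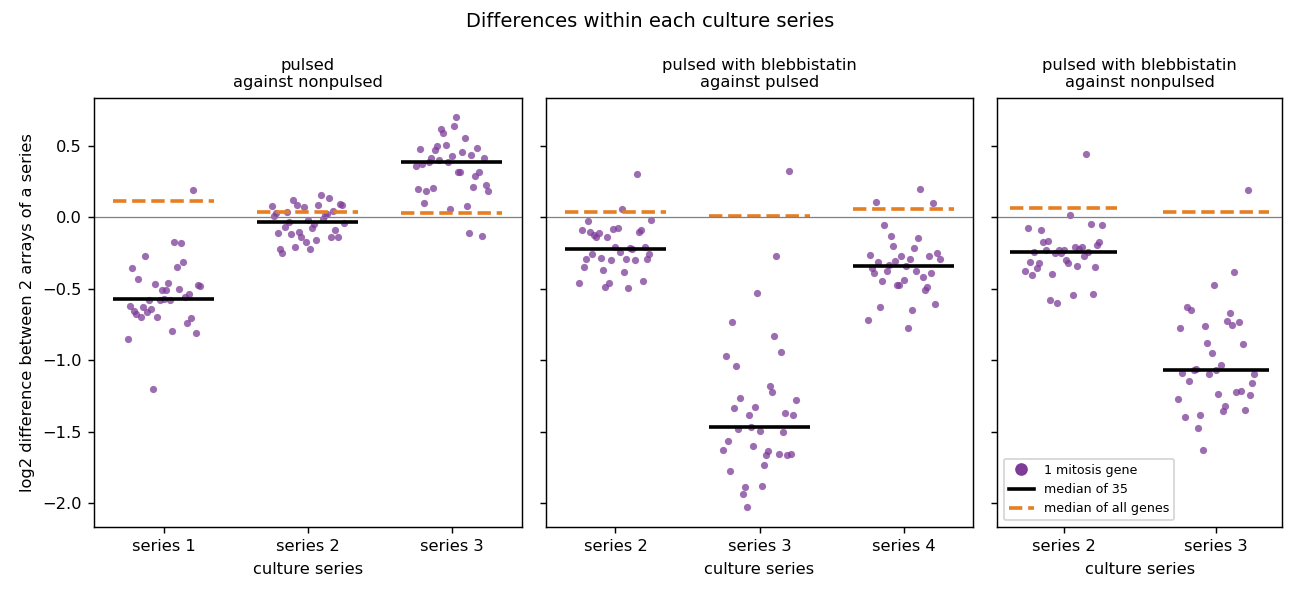
Log2 difference between the paired arrays of each culture series (vertical axis) for the 35 mitosis genes (points), in 3 panels by comparison, with the median of the 35 as a black line and the median of all genes as a dashed line. Pulsed against nonpulsed the median goes from -0.57 in series 1 to 0.38 in series 3, while with blebbistatin it is below 0 in each series.

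Fitted over all series, 0 of the 35 genes passed in pulsed against nonpulsed cultures (limma, Benjamini-Hochberg adjusted p under 0.05), and 0% of all 18393 genes passed. At an unadjusted p under 0.05 the counts were also 0 of 35, against 1.27% of all genes lower and 7.83% higher. The fitted change was below 0 for 32 of 35 (38% of all genes), with a median of -0.12, against 0.05 over all genes. It ranged from -0.31 for Aurka to 0.08 for Top2a, and the smallest adjusted p was 0.634 (limma). This direction rested on series 1, since without it 8 of the 35 fitted changes were below 0 and the median was 0.09. Leaving out either array of series 1 gave the same values, because a series with 1 array adds nothing to a comparison within series. Without series 3 all 35 were below 0, with a median of -0.25. The share of all genes below 0 was not computed for these reduced fits.

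Aurka and Cenpe show how far apart the series lay. Aurka encodes the Aurora A kinase of the spindle poles. Its nonpulsed log2 values were 7.41, 7.39 and 6.97 in series 1, 2 and 3, and its pulsed values 6.74, 7.17, 7.07 and 6.58 in series 1 to 4. The pulsed array was the lower in series 1 and 2 and the higher in series 3, and the groups overlapped (fitted change -0.31, SE 0.18). Cenpe, a kinesin that carries chromosomes to the spindle equator, had nonpulsed values of 6.20, 5.62 and 5.26 and pulsed values of 4.99, 5.70, 5.88 and 5.56. Its difference was -1.20 in series 1, the largest of the 35, then 0.09 and 0.62 in series 2 and 3.

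Blocking contraction in pulsed cultures was tested against pulsed cultures without the drug. Mitosis genes were lower with blebbistatin in every series, by far the most in series 3, and no single gene passed the test. In series 2, 33 of 35 genes were lower (44.4% of all genes), with a median log2 difference of -0.22. In series 3, 34 of 35 were lower (48% of all genes), with a median of -1.47, and 28 of them by more than 1 log2 unit, against 1.27% of all genes. In series 4, 32 of 35 were lower (42.1% of all genes), with a median of -0.34. The medians over all genes were 0.04, 0.01 and 0.05. Of the 35 genes, 30 were lower in all 3 series (15.1% of all genes), and the exceptions were Aurka, Kif2c, Smc4, Birc5 and Cdc20. For 23 of 35 all blebbistatin arrays lay below all pulsed arrays, against 3.69% of all genes.

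In the fit, 0 of 35 genes passed with blebbistatin against pulsed (limma, Benjamini-Hochberg adjusted p under 0.05), against 3 of all genes (0.0163%). The smallest adjusted p was 0.313, for Top2a. At an unadjusted p under 0.05, 18 of 35 were lower (5.6% of all genes) and 0 higher (6.23% of all genes). The fitted change was below 0 for 34 of 35 (44.3% of all genes), with a median of -0.59, against 0.02 over all genes, and ranged from -0.83 for Kif23 to 0.03 for Cdc20. Without series 3 the median was -0.19, with 33 of 35 below 0 and 0 at an unadjusted p under 0.05. Without the blebbistatin array of series 3 the median was -0.26 with 0 at that p, and without its pulsed array -0.33 with 5. Counts at that p were also moved over 1.5-fold by leaving out the nonpulsed array of series 3 (11), the pulsed array of series 2 (10) or the blebbistatin array of series 2 (29). Shares of all genes were not computed for these reduced fits.

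**Figure D3:**
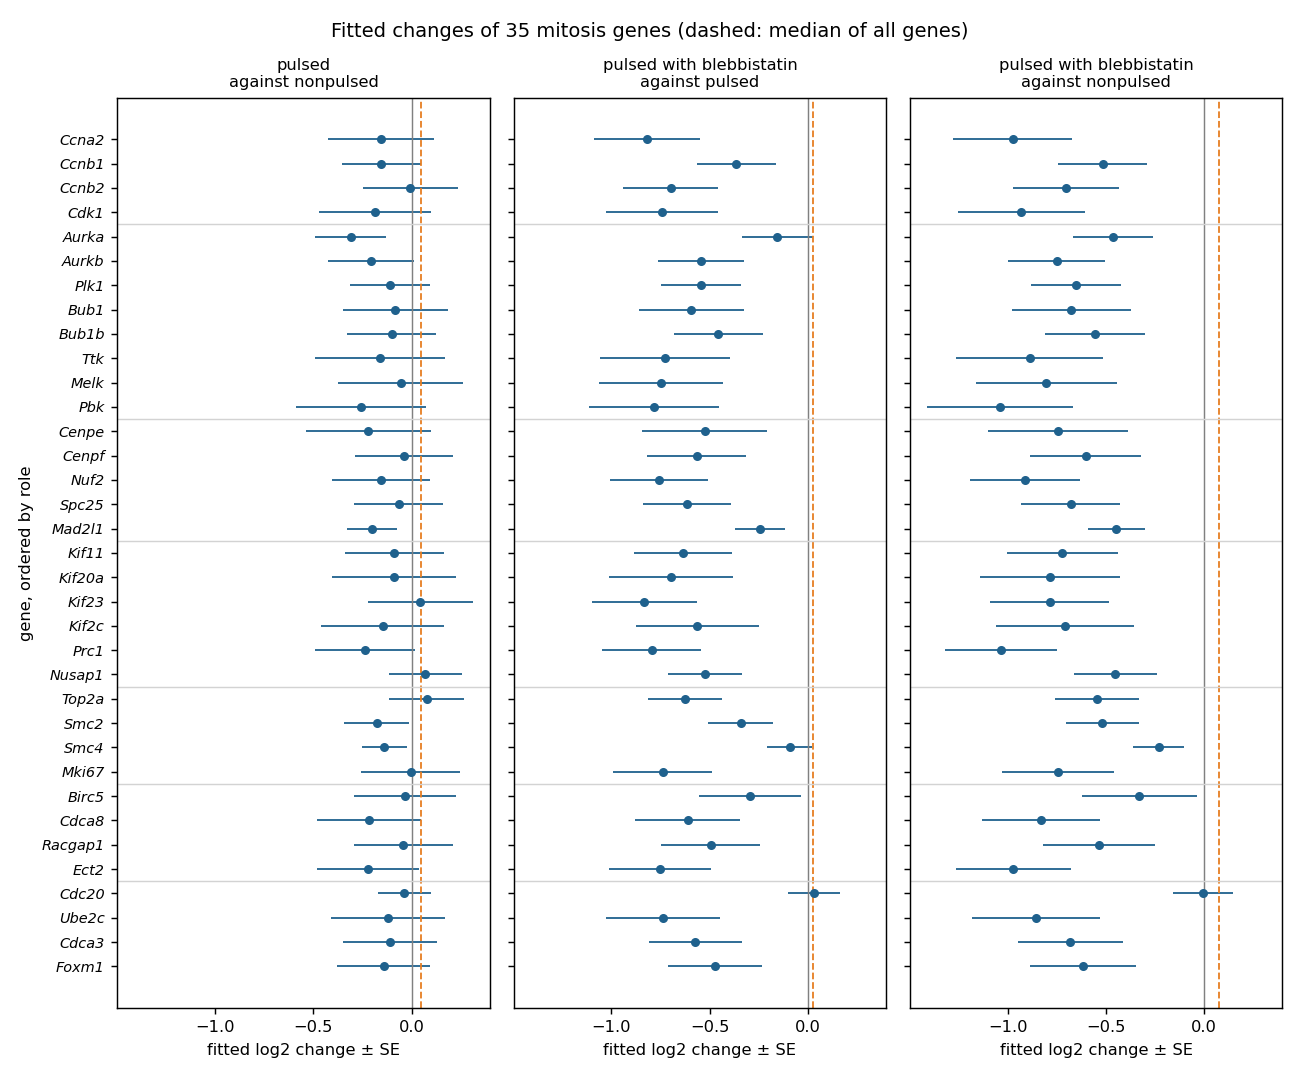
Fitted log2 change (horizontal axis, point) with its standard error (bar, limma with culture series as a block, 10 arrays) for the 35 mitosis genes in rows by role, in 3 panels by comparison; the dashed line is the median of all genes. Changes with blebbistatin against pulsed run from -0.83 for Kif23 to 0.03 for Cdc20, and those of pulsed against nonpulsed from -0.31 to 0.08.

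Among the cyclins and their kinase, all 4 genes were lower with blebbistatin in every series, with a median fitted change of -0.72. Ccna2 encodes cyclin A2, which acts in DNA replication and at the entry into mitosis. Its log2 values were 9.81, 9.06 and 9.11 in nonpulsed arrays of series 1, 2 and 3, 8.95, 9.14, 9.47 and 8.69 in pulsed arrays of series 1 to 4, and 8.68, 7.84 and 7.97 in blebbistatin arrays of series 2 to 4. All blebbistatin arrays lay below all others, but the highest of them came very close to the lowest pulsed array, from another series. The fitted change against pulsed was -0.82 (SE 0.27), which is 1.76-fold lower, and it did not pass (limma, adjusted p = 0.333). Cdk1, the kinase that cyclins A and B switch on, read 9.98, 9.46 and 9.46 without pulses, 9.33, 9.35, 9.84 and 9.30 with pulses, and 9.05, 8.06 and 8.91 with blebbistatin. The 3 blebbistatin values of Cdk1 lay below the other 7, and the change was -0.74 (SE 0.28, adjusted p = 0.391). Ccnb1 and Ccnb2, the B cyclins, had changes of -0.36 and -0.70, and the other Ccnb1 probe set had a change of -0.65.

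The 8 other mitotic kinases had a median change of -0.57 and ranged from -0.78 for Pbk to -0.16 for Aurka. Pbk, a kinase that is active in dividing cells, read 8.16, 7.52 and 7.61 in nonpulsed, 7.52, 7.32, 8.0 and 7.07 in pulsed and 6.94, 5.98 and 6.93 in blebbistatin arrays. No blebbistatin array overlapped another group, and the difference was -0.37, -2.03 and -0.13 in series 2, 3 and 4, so series 3 stood apart (fitted change -0.78, SE 0.33; limma, adjusted p = 0.419). Aurka had blebbistatin values of 7.14, 6.34 and 6.69, which overlapped both other groups. Its difference against pulsed was -0.03, -0.73 and 0.11, and without series 3 its fitted change was 0.10. Aurkb, the Aurora B kinase of the chromosomal passenger complex, had a change of -0.55 and Plk1, the Polo kinase, of -0.54. Bub1, Bub1b and Ttk, kinases and a related protein of the spindle checkpoint, had changes of -0.59, -0.46 and -0.73, and Melk of -0.75.

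All 5 measured kinetochore and checkpoint genes were lower with blebbistatin in each series. Nuf2 encodes a subunit of the Ndc80 complex, which grips the microtubule, and had the largest change of them. It read 8.29, 8.01 and 7.84 in nonpulsed, 7.59, 7.87, 8.35 and 7.74 in pulsed, and 7.41, 6.74 and 7.26 in blebbistatin arrays. Its blebbistatin arrays lay below all others, with a change of -0.76 (SE 0.25; limma, adjusted p = 0.335), which is 1.69-fold lower. Spc25, another subunit of that complex, had a change of -0.61, Cenpf of -0.57 and the checkpoint protein gene Mad2l1 of -0.24. Cenpe read 5.21, 4.49 and 5.36 with blebbistatin, so series 2 and 4 lay within the range of the pulsed arrays (change -0.53, SE 0.32).

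Spindle motors and microtubule proteins, 6 genes, had a median change of -0.67 with blebbistatin. Kif23 encodes the kinesin of the centralspindlin complex, which bundles the microtubules of the spindle midzone before cytokinesis. Its values were 8.46, 8.06 and 7.82 in nonpulsed, 8.0, 7.98, 8.52 and 7.86 in pulsed, and 7.74, 6.79 and 7.09 in blebbistatin arrays. The blebbistatin arrays lay below all others, and the difference was -0.24, -1.73 and -0.77 in series 2, 3 and 4 (change -0.83, SE 0.27; limma, adjusted p = 0.331). Prc1, which crosslinks the antiparallel microtubules of the midzone, read 9.26, 8.95 and 8.77 without pulses, 8.46, 8.79, 9.09 and 8.67 with pulses and 8.40, 7.45 and 8.02 with blebbistatin. Its blebbistatin arrays too lay below the other 7, though the highest came close to the lowest pulsed array, and the change was -0.80 (SE 0.25; adjusted p = 0.331). Kif11, the motor that pushes spindle poles apart, had a change of -0.64, Kif20a of -0.70, Nusap1 of -0.52 and Kif2c, which shortens microtubules, of -0.56. The Kif2c difference was 0.06 in series 2 and -1.67 in series 3. Its other probe set had a smaller change of -0.10, with differences of 0.14 and -0.41 in those series.

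Chromosome structure genes were split. Mki67 encodes the Ki-67 antigen, which coats mitotic chromosomes and is widely used as a marker of cycling cells. It read 9.12, 8.55 and 8.58 in nonpulsed, 8.81, 8.57, 9.02 and 8.52 in pulsed and 8.28, 7.36 and 8.10 in blebbistatin arrays. Nonpulsed and pulsed arrays overlapped, with a fitted change of -0.00 (SE 0.25), and the blebbistatin arrays lay below both (change against pulsed -0.74, SE 0.25; limma, adjusted p = 0.354). Top2a, the topoisomerase that untangles sister chromatids, had a change of -0.62 (SE 0.19). The condensin subunit genes were nearer 0, with -0.34 for Smc2 and -0.09 for Smc4. Smc4 differed by -0.22, -0.27 and 0.20 in series 2, 3 and 4, and its other probe set had a change of 0.02.

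**Figure D4:**
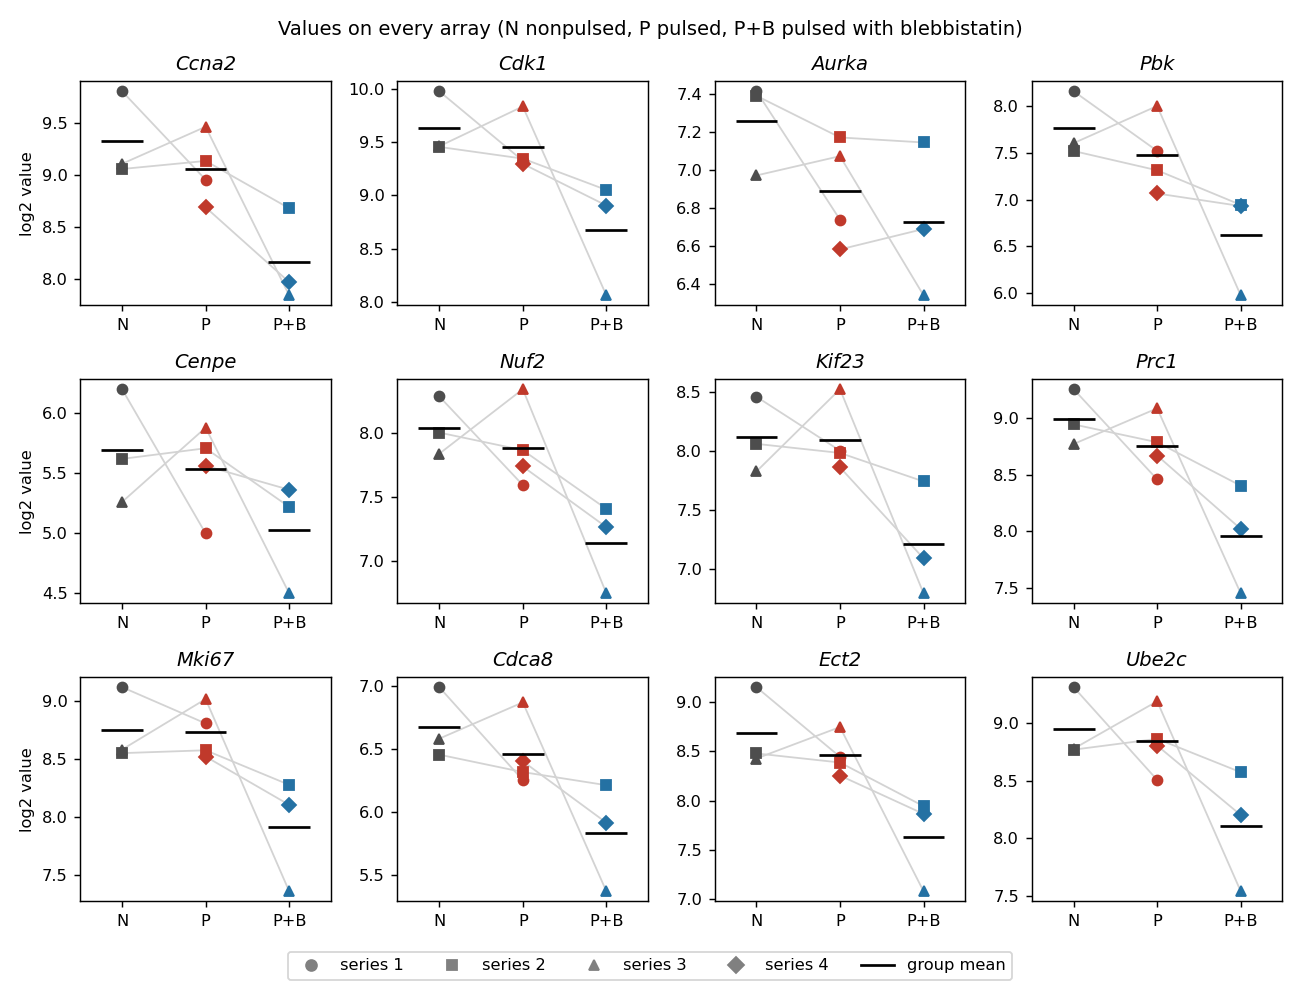
Log2 values on every array (vertical axis) of 12 mitosis genes in nonpulsed (N), pulsed (P) and pulsed with blebbistatin (P+B) cultures; symbols mark the culture series, lines join the arrays of a series and bars are group means. The blebbistatin arrays lie below all others for every gene shown but Aurka, Cenpe and Ube2c, and the triangles of series 3 span the widest range. The genes shown were chosen mainly for large fitted changes in these same data, which favours such a gap. Its share among all genes was not computed.

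The passenger complex and cytokinesis genes had a median change of -0.55 with blebbistatin against pulsed. Ect2 activates the GTPase RhoA at the cell equator, upstream of the myosin II ring that blebbistatin inhibits. It read 9.15, 8.48 and 8.43 in nonpulsed, 8.44, 8.39, 8.75 and 8.25 in pulsed, and 7.94, 7.08 and 7.86 in blebbistatin arrays. The blebbistatin arrays lay clear of the others, with a change of -0.75 (SE 0.26; limma, adjusted p = 0.354), or 1.68-fold lower. Cdca8, the passenger protein borealin, read 6.99, 6.46 and 6.58, then 6.25, 6.32, 6.87 and 6.40, and with blebbistatin 6.21, 5.37 and 5.91. Its blebbistatin values lay below the rest, by little in series 2 (-0.10) and by more in series 3 (-1.50) and 4 (-0.49). Racgap1, the partner of Kif23 in centralspindlin, had a change of -0.49. Birc5, the passenger protein survivin, was higher with blebbistatin in series 2 (0.30) and lower in series 3 (-0.94) and 4 (-0.51).

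The last group holds genes of the anaphase promoting complex and of mitotic entry. Ube2c, the ubiquitin-conjugating enzyme of that complex, read 9.32, 8.77 and 8.78 in nonpulsed, 8.51, 8.87, 9.19 and 8.81 in pulsed and 8.58, 7.54 and 8.20 in blebbistatin arrays. Within each series the blebbistatin array was the lower (-0.29, -1.65 and -0.60), and it overlapped only the pulsed array of series 1 (change -0.74, SE 0.29; adjusted p = 0.397). Cdca3, a factor of mitotic entry, had a change of -0.57, and Foxm1, a transcription factor of late cell cycle genes, of -0.47. Cdc20, the activator of the complex in mitosis, differed from the rest. Its values were 7.47, 7.51 and 7.17, then 7.66, 7.38, 7.04 and 7.24, and with blebbistatin 7.17, 7.36 and 7.33, and all 3 groups overlapped. That probe set had a change of 0.03, whereas the other 4 Cdc20 probe sets had changes of -0.16, -0.33, -0.44 and -0.64, so the probe sets disagreed. Of the 12 members with more than 1 probe set, 9 had the same sign in all of them, and Cdc20, Smc4 and Foxm1 did not. Probe sets of the same sign could still differ in size, as for Kif2c and Ccnb1. The other Foxm1 probe set was at the lowest level of the array on 4 arrays and had a change of 0.37. Over all 51 probe sets, 48 had a change below 0 and 0 of the 51 passed (limma). In that unfiltered fit 0 of all 31042 probe sets passed, and their share below 0 was not computed. Within series 2, 3 and 4, 44, 50 and 43 of the 51 were lower than in the pulsed array. Of all probe sets, 47.8%, 44.5% and 42.1% were.

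Blebbistatin cultures were also set against nonpulsed cultures, a comparison that shares its blebbistatin arrays with the one above and its nonpulsed arrays with that of pacing. In series 2, 33 of 35 mitosis genes were lower (42.1% of all genes), with a median difference of -0.25. In series 3, 34 of 35 were lower (44% of all genes), with a median of -1.07, and 21 of them by more than 1 log2 unit (1.04% of all genes). For 32 of 35 genes the blebbistatin array was lower in both series (25.2% of all genes), and for 30 of 35 the 3 blebbistatin arrays lay below all 3 nonpulsed arrays (6.77% of all genes). In the fit 35 of 35 changes were below 0 (38.6% of all genes), with a median of -0.70, against 0.07 over all genes. The largest were -1.04 for Pbk (SE 0.37), -1.03 for Prc1 (SE 0.29), -0.97 for Ccna2 (SE 0.30) and -0.97 for Ect2 (SE 0.29), and the nearest to 0 was -0.01 for Cdc20. None of the 35 passed (limma, Benjamini-Hochberg), against 63 of all genes (0.343%), and the smallest adjusted p was 0.112, for Prc1. In the same fit 2 of 10 cardiomyocyte markers were below 0 (38.6% of all genes) and 8 above, with a median of 0.34. Medians were -0.71 for smooth muscle and pericyte markers, -0.42 for macrophage and leukocyte markers, -0.25 for fibroblast markers, -0.14 for endothelial markers and -0.69 for the 2 Schwann and neural markers. They were 0.16 for mesothelial and epicardial markers and -0.04 for erythroid markers. None of these markers passed (limma). At an unadjusted p under 0.05, 6 smooth muscle, 6 fibroblast, 3 macrophage, 1 endothelial, 1 neural and 1 cardiomyocyte markers were lower, and 3 cardiomyocyte markers and 1 endothelial marker were higher. Of all genes, 6.8% were lower and 15.8% higher at that p. Their part in the mitosis values was not tested.

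At an unadjusted p under 0.05, 20 of 35 were lower than in nonpulsed arrays (6.8% of all genes) and 0 higher (15.8% of all genes). With culture series as a random block, 4 of the 35 mitosis genes passed, all of them lower, beside 1020 of all 18393 genes. The 4 were Prc1 (adjusted p = 0.0383), Ect2 (0.0450), Ccna2 (0.0460) and Nuf2 (0.0465; limma with duplicateCorrelation). Without the blebbistatin array of series 3 the median was -0.31 with 0 of 35 at the unadjusted p, and the count was 7 without either array of series 1, 6 without the nonpulsed array of series 3 and 32 without the pulsed array of series 3. Shares of all genes at that p were not computed for these alternatives.

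The order of the 3 groups differed between the 2 series that held all of them. In series 3 the order pulsed, nonpulsed, blebbistatin from high to low was found for 33 of 35 mitosis genes (18.5% of all genes). In series 2 that order was found for 14 (14.7% of all genes), and nonpulsed, pulsed, blebbistatin for 19 (16.9% of all genes). Blebbistatin was lowest for 33 of 35 in series 2 and 34 of 35 in series 3, against 31.6% and 34% of all genes. The pulsed array of series 3 was the highest of the 4 pulsed arrays for 32 of 35 genes (18.5% of all genes), and the blebbistatin array of the same series was the lowest of the 10 for 32.

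Other genes of the cell cycle were read from further lists, with 0 genes called in each in any of the 3 comparisons. Of 60 further mitosis genes, 46 were tested, and with blebbistatin against pulsed 43 had a change below 0 (44.3% of all genes), with a median of -0.46. Of these, 18 had an unadjusted p under 0.05, all lower (5.6% of all genes). The largest changes were -0.88 for Cdkn3, a phosphatase that acts on cyclin-dependent kinases, -0.82 for Iqgap3 and -0.76 for Shcbp1. Their medians were -0.11, -1.15 and -0.24 in series 2, 3 and 4. DNA replication genes, 25 of 30 tested, were all below 0 but by less, with a median of -0.24 and 8 at an unadjusted p under 0.05. Mcm6 and Mcm3, subunits of the replicative helicase, had changes of -0.58 and -0.56, and Gins1, which joins that helicase, of -0.53.

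Lists of genes that act before mitosis or that are present throughout the cycle had medians nearer to 0 than the mitosis genes, though E2f7 had a change beyond that of each of the 35. The difference between lists was not tested. The 14 anaphase promoting complex subunits had a median of 0.00 with blebbistatin against pulsed, with 7 below 0 and changes from -0.18 for Anapc10 to 0.15 for Anapc16, next to 0.14 for Anapc13. Of the G1 cyclins, their kinases and the RB and E2F family, 24 of 26 were tested, with a median of -0.12 and 19 below 0. Their 3 largest changes belonged to genes that are transcribed around S phase: E2f7 and E2f8, repressors of the E2F family, at -0.98 and -0.60, and Ccne2, cyclin E2, at -0.69. The 15 tested CDK inhibitors and growth arrest genes had a median of -0.10, with Cdkn2b at 0.31, Gadd45b at -0.28 and Chek1, a checkpoint kinase, at -0.24.

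**Figure D5:**
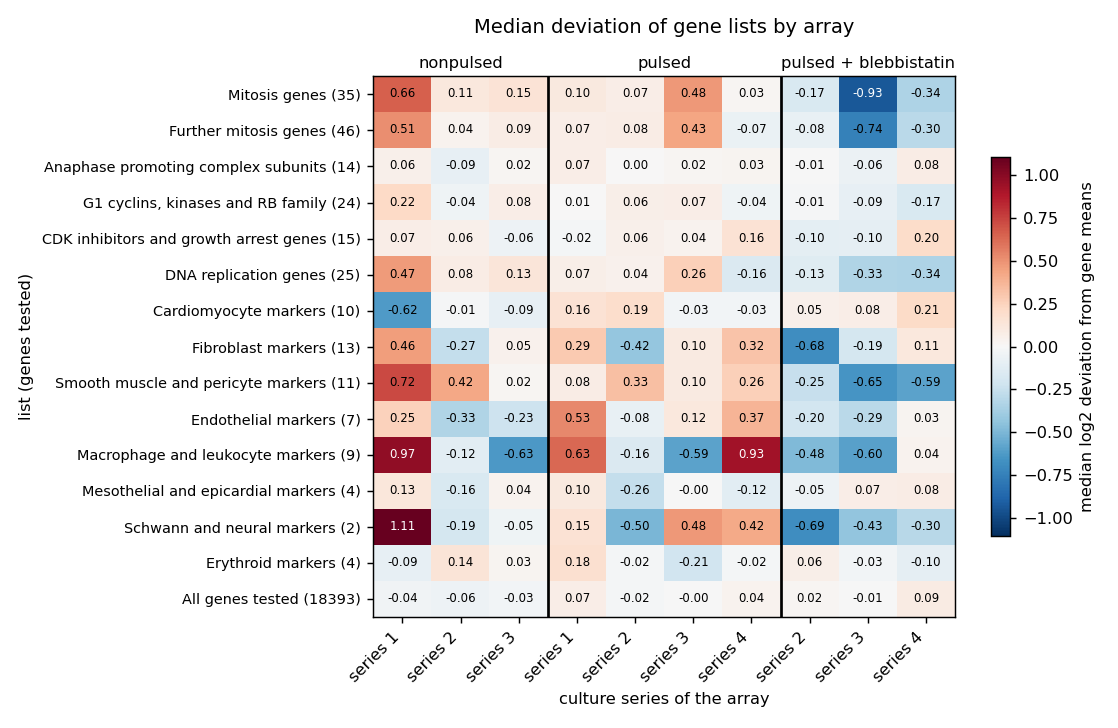
Median log2 deviation of the tested genes of each list from their own means over 10 arrays (colour and number), with lists in rows, their number of tested genes in brackets, and arrays in columns by group and culture series. Mitosis genes run from 0.66 to -0.93, anaphase promoting complex subunits from 0.08 to -0.09.

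No marker of the cell types listed passed the test with blebbistatin against pulsed (limma, Benjamini-Hochberg). Apart from cardiomyocyte markers, the fitted changes of most lists had medians below 0, those of mesothelial and erythroid markers excepted. Of all genes, 44.3% had a change below 0 against pulsed. All 11 smooth muscle and pericyte markers had a change below 0, with a median of -0.66, and medians of -0.46, -0.74 and -0.93 in series 2, 3 and 4. Their summed linear level was 18541 to 26824 in nonpulsed, 19966 to 22702 in pulsed and 12772 to 16116 in blebbistatin arrays. That of the 35 mitosis genes was 10111 to 14417, 9367 to 12959 and 5230 to 8333. Of 13 fibroblast markers 11 were below 0, with a median of -0.27, and their sum was 46055 to 71865 in pulsed and 41210 to 60873 in blebbistatin arrays. Of 9 macrophage and leukocyte markers 8 were below 0, with a median of -0.23 and sums of 1605 to 5019 in pulsed and 1465 to 2962 in blebbistatin arrays. Of 7 endothelial markers 6 were below 0, with a median of -0.19 and sums of 1008 to 1488 and of 992 to 1350. Medians were -0.48 for 2 Schwann and neural markers (-0.19, -0.91 and -0.72 in series 2, 3 and 4), 0.22 for 4 mesothelial and epicardial markers and 0.01 for 4 erythroid markers. The 10 cardiomyocyte markers had a median of 0.01, with 4 below 0, and their sum was 74241 to 89842 in pulsed and 79803 to 83962 in blebbistatin arrays. At an unadjusted p under 0.05, 5 smooth muscle, 4 fibroblast, 3 macrophage, 2 endothelial, 1 neural and 1 cardiomyocyte markers were lower and 1 mesothelial marker was higher. Of all genes, 5.6% were lower and 6.23% higher at that p. The median of smooth muscle markers lay farthest below 0 in series 4, that of mitosis genes in series 3. The difference between the 3' and 5' GAPDH control probe sets was 0.06 to 0.17 in pulsed and 0.19 to 0.22 in blebbistatin arrays. For the other controls the groups overlapped. Beta-actin had 0.60 to 0.72 in pulsed and 0.69 to 0.77 in blebbistatin arrays, and hexokinase 0.80 to 1.04 and 0.81 to 1.03. The part of these markers and of RNA quality in the mitosis values was not tested.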

How the data were processed

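The values analysed were log2 expression values of Affymetrix rat arrays in 1 deposited table with 10 columns, which the authors summarised, per the submitters' processing notes, by PLIER (Affymetrix Expression Console 1.1) from biotin-labelled RNA extracted with Trizol. The sources used here do not give its background and normalization settings. Probe sets were named from the platform annotation, which gave 1 symbol to 20826, several to 436 and none to 9780 of 31042, beside 57 controls. Matching to RefSeq gene identifiers updated 0 symbols. The annotation names no genome build, so probe positions are not given.

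Probe sets in the lowest 25% by mean (below 5.09) were left out, which kept 23281, and the probe set with the highest mean stood for a gene, so that 18393 genes and unnamed probe sets were tested. Of the 51 mitosis probe sets 48 passed. The test of log2 differences was limma 3.58.1 under R 4.3.3 (two-sided, all 10 arrays, culture series as a fixed block), with Benjamini-Hochberg adjustment over all 18393 and a call at an adjusted p under 0.05. Each comparison then also uses the arrays of the remaining group. A further fit used all 31042 probe sets, with no filter. The procedure was tested on simulated data.

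The titles date each array, and the date was taken as the culture series. The design text speaks of 3 arrays per treatment, while the labels give 4 pulsed arrays, all used. As a check of pairing, deviations from group means correlated at 0.347 to 0.640 in all 8 pairs of the same series, and at -0.58 to 0.49 (median -0.25) in 25 pairs of different series and groups. The 3 pairs of series 1 with series 4 correlated at 0.348, 0.455 and 0.494, as high as pairs of the same series. The number of arrays limits the precision. The mitosis genes and all other lists were chosen with earlier results of these data known. Genes given with all values were the 6 largest changes per comparison, the largest with blebbistatin in each role group, and Mki67. Of each further list the 3 largest changes were named. Cdc20, Smc4, Birc5, Kif2c and other members given by their change alone are outside that rule and were named after their values were seen. Alternatives were no block, a random block (statmod 1.5.0), median centring, quantile normalization, only the groups compared, a trended prior, other probe set rules and filters, and leaving out each array or series.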

Additional observations from a re-analysis of the deposited data

Results flagged for a closer look

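In the 4 pulsed arrays, 36 sets of values were tested by Dixon's criterion (the 35 genes and their median). In 3 of the 36, 1 array lay far from the others, where chance gives about 1 in 20 for a single set. The 36 sets are not independent, because all come from the same 4 arrays and 1 is the median of the rest. The share over all genes was not computed. Cdk1 stood at 9.84 in the pulsed array of series 3, with the next array at 9.35. Bub1, a kinase of the spindle checkpoint, stood at 8.67 in the same array, with the next at 8.23. Smc4, a condensin subunit, was low in the pulsed array of series 4 at 8.84, with the next at 9.26. The groups of 3 arrays were not examined in this way.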

How the results depend on the processing

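The count of 0 mitosis genes called was the same under all alternatives run, except with a random block against nonpulsed (4 of 35). At an unadjusted p under 0.05, the 18 mitosis genes lower with blebbistatin against pulsed became 28 with no replicate block, 28 with a random block and 0 without series 3 (0 to 29 leaving out 1 array). The 20 lower against nonpulsed became 32, 33, 7 without series 1 and 8 without series 3 (0 to 32). Pulsed against nonpulsed had 0, and 2 without series 3 (0 to 6), and its 32 fitted changes below 0 became 8 without series 1 (8 to 34). The matching shares of all genes were not computed under the alternatives, so a moved count may not be particular to mitosis genes.

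The 3 genes called of all genes with blebbistatin against pulsed became 1 with no replicate block, 7 with a random block, 0 with only the groups compared, 0 with no filter, 6 with a stricter filter, 8 with a trended prior, and 30, 0, 0 and 1 without series 1, 2, 3 and 4 (0 to 30). The 63 against nonpulsed became 30, 1020, 2, 1 with no filter, 110 with every probe set above the filter on its own (1 with all 31042, unfiltered), 163 with a trended prior, and 0, 0 and 8 without series 2, 3 and 4 (0 to 46).

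Sign changes occurred in pulsed against nonpulsed. Kif23 (0.045) was at -0.023 with no replicate block, -0.021 with quantile normalization, -0.027 with median centring and -0.18 without series 3 (-0.27 to 0.27). Mki67 (-0.0047) was at 0.049 with only the groups compared, 0.049 without series 4 and 0.14 without series 1 (-0.28 to 0.14). Without series 1, Ccna2 was at 0.16 (-0.42 to 0.16), Cdk1 at 0.025 (-0.51 to 0.025), Cenpe at 0.23 (-0.56 to 0.23), Nuf2 at 0.092 (-0.46 to 0.092), Prc1 at 0.019 (-0.52 to 0.019), Cdca8 at 0.023 (-0.50 to 0.023), Ect2 at 0.0027 (-0.51 to 0.0027) and Ube2c at 0.19 (-0.41 to 0.19). With blebbistatin against pulsed, Aurka was at 0.10 without series 3 (-0.28 to 0.047). The cause was not tested.

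Of the 12 genes given in full, the other 11 kept a negative change with blebbistatin in both comparisons under all alternatives. The 12 were chosen mainly for large fitted changes in these same data, which favours a kept sign. Smc4, Birc5 and Mad2l1, which had smaller changes than these 11, were not among the 12. The share of all genes that kept their sign was not computed, so robustness of the mitosis genes as a set cannot be read from this count. No scaling moved the median of all genes by over 0.1. Cenpe and Cdca8 were not tested under the stricter filter. A series alone has no replicate, and pooled RNA hides the spread between cultures.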
